A study of Homo sapiens with 4 samples.

Results

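The genes described here are the collagen, laminin and integrin genes of 2 human hepatocellular carcinoma cell lines kept at low or high glucose. They were chosen by symbol alone, as every line of the count table named as a numbered collagen chain, a laminin alpha, beta or gamma chain, or an integrin alpha or beta chain. The rule gave 82 genes of 59652, with 44 collagens, 12 laminins and 26 integrins. The rule itself used no measured value, but the members were chosen with earlier results of these data known. Huh7 and PLC cells (PLC/PRF/5), both labelled WT, were grown for 48 h in glucose-free medium with serum to which 5 mM (low) or 25 mM (high) glucose had been added. One RNA library was sequenced for each line and glucose level, 4 in all, so there is no replicate culture of any condition and each line stands for itself only. The study set high against low glucose to find glucose-related transcripts, and here the question is which matrix chains and receptors each line used and whether their levels differed between the glucose levels.

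The libraries held 16049686 to 30279716 reads assigned to genes, with the lowest total in PLC cells at 25 mM. The 82 genes took 0.382%, 0.371%, 0.535% and 0.456% of the reads, listed as Huh7 low glucose, Huh7 high glucose, PLC low glucose, PLC high glucose. Values of 4 libraries follow this order throughout. Of 11 markers of hepatocytes and liver tumours, all but TTR were detected in every library, and TTR had 4 and 0 reads in PLC cells. In the edgeR test of line, 8 of the 11 were higher in Huh7 cells (21.8% of all genes tested). Only 1 was higher in PLC cells (21.1%). Of the 7 markers of stellate cells and fibroblasts, ACTA2, DES and POSTN had at most 3 reads in any library. The same held for VWF, CDH5 and KDR of endothelium and CD3E of T cells. The other endothelial markers were read, PECAM1 with an FPKM (reads scaled to gene length and library total) of 2.37, 2.55, 0.115 and 0.290 (higher in Huh7 cells, adjusted p = 7.29e-06, edgeR) and STAB2 with 17, 18, 33 and 16 reads. Summed FPKM of the 5 endothelial markers was 2.46, 2.61, 0.239 and 0.418, and its part in the results was not tested. LUM, a proteoglycan gene of the fibroblast list, had 360, 434, 0 and 0 reads. PDGFRB of that list had 36, 32, 2 and 2, and both genes were higher in Huh7 cells (adjusted p = 2.62e-07 and 0.00427, edgeR). THY1 had 36, 18, 23 and 4 reads and DCN 0, 4, 14 and 8, with no line call. Summed over the 7 genes of that list the FPKM was 6.79, 5.65, 0.218 and 0.0921. Over the 11 hepatocyte and liver tumour markers it was 5548, 5743, 1142 and 2050. In bulk RNA, fewer cells of a type and less RNA per cell cannot be told apart.

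Collagens are triple helices of 3 chains that form fibrils, networks or beaded filaments outside the cell. Laminins are cross-shaped trimers of an alpha, a beta and a gamma chain that, with type IV collagen, build the sheets of basement membranes. Integrins are receptors of 1 alpha and 1 beta chain, and the alpha chain largely sets whether a cell holds on to collagen, laminin or proteins with an RGD motif such as fibronectin. In the healthy liver most fibrillar collagen is made by stellate cells and fibroblasts, and hepatocytes rest on a thin matrix without a full basement membrane.

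Type IV collagen genes lie in head-to-head pairs, and 1 stretch between the RefSeq starts of each pair is shown. The stretches before COL5A3, LAMB1 and ITGA6 are shown because COL5A3 was read in PLC cells only and the other 2 had the smallest p-values for glucose among the members. Sequences are from RefSeq on GRCh38.p14, written 5′ to 3′ on the strand of the named gene and limited to bases that no exon of the count table covers. Windows were found for 58 of the 82 symbols, and 13 of these had more than 1. ITGA6 is among the 13, and its window of lowest coordinate is used. Capitals mark matches to 4 short motifs on either strand, which do not show binding. The GC box was searched as GGGCGG and the CCAAT box by the letters of its name. The TATA box was searched as TATAAA. The E-box was searched as CACGTG.
COL4A1 (chr13:110307158-110307257, minus strand, toward COL4A2): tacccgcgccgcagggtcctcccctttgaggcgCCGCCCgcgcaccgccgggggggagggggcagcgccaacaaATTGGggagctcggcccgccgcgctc
COL4A3 (chr2:227164454-227164623, plus strand, toward COL4A4): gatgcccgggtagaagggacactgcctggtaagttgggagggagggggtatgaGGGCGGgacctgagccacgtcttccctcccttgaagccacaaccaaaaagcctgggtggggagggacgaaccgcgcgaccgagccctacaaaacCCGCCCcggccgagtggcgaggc
COL4A5 (chrX:108439588-108439837, plus strand, toward COL4A6): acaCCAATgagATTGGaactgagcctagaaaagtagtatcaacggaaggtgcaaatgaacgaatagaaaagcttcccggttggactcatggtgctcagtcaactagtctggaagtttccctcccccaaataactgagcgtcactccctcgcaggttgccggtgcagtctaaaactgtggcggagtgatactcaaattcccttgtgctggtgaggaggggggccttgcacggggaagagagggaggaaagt
COL5A3 (chr19:10010505-10010754, minus strand): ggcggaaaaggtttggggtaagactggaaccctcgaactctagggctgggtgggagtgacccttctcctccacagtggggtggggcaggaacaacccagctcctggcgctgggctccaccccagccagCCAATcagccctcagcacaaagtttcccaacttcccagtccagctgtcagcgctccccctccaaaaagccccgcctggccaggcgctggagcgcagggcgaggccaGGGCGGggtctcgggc
LAMB1 (chr7:108003188-108003411, minus strand, ending 26 bases before the RefSeq start): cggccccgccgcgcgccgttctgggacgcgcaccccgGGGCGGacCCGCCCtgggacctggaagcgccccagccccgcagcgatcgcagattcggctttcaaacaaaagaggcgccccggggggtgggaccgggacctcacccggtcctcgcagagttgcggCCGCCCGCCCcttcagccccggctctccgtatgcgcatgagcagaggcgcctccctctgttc
ITGA6 (chr2:172427086-172427335, plus strand): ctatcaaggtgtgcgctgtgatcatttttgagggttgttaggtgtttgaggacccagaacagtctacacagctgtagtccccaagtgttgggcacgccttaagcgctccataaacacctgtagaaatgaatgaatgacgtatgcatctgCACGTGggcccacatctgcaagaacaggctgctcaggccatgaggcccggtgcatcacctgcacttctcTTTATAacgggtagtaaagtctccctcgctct

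The stretch before COL4A5 held 51.2% G or C and no GC box, while those before COL4A1 and COL4A3 held 78% and 65.9% with 1 and 2 GC boxes. Over all 35116 promoter windows of 300 bases in the RefSeq table, 45% had a GC box, 34.6% a CCAAT box, 11.5% a TATA box and 7.26% an E-box. Among the 77 windows of the members these shares were 55.8%, 26%, 13% and 1.3%. The 1 member window with an E-box is the ITGA6 window from which the stretch is shown. Another ITGA6 window (chr2:172427336-172427635) held 72% G or C and 3 GC boxes, with no TATA box and no E-box. The GC box matches of LAMB1 include 2 that overlap each other.

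Levels were compared between genes as FPKM, which divides by gene length. Of the 82 genes, 33 reached an FPKM of 1 in at least 1 library, 26 had under 20 reads in every library and 5 had 0 reads in all 4 (COL13A1, COL22A1, COL25A1, ITGA4 and ITGA8). Summed FPKM of the collagens was 131.3, 127.6, 45.2 and 37.9, higher in both Huh7 libraries than in both PLC libraries. The summed laminin level was 125.6, 122.2, 207.2 and 165.9 and the summed integrin level 241.4, 230.1, 509.2 and 445.0, both higher in PLC cells. A short list of chains made up each sum. Of the genes that stayed under 1, the highest were ITGA3, a laminin-binding chain with 16, 12, 283 and 129 reads, and COL28A1, at an FPKM of 0.954 and 0.946 in their highest library. None of the 4 transmembrane collagens reached 1.

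**Figure D1:**
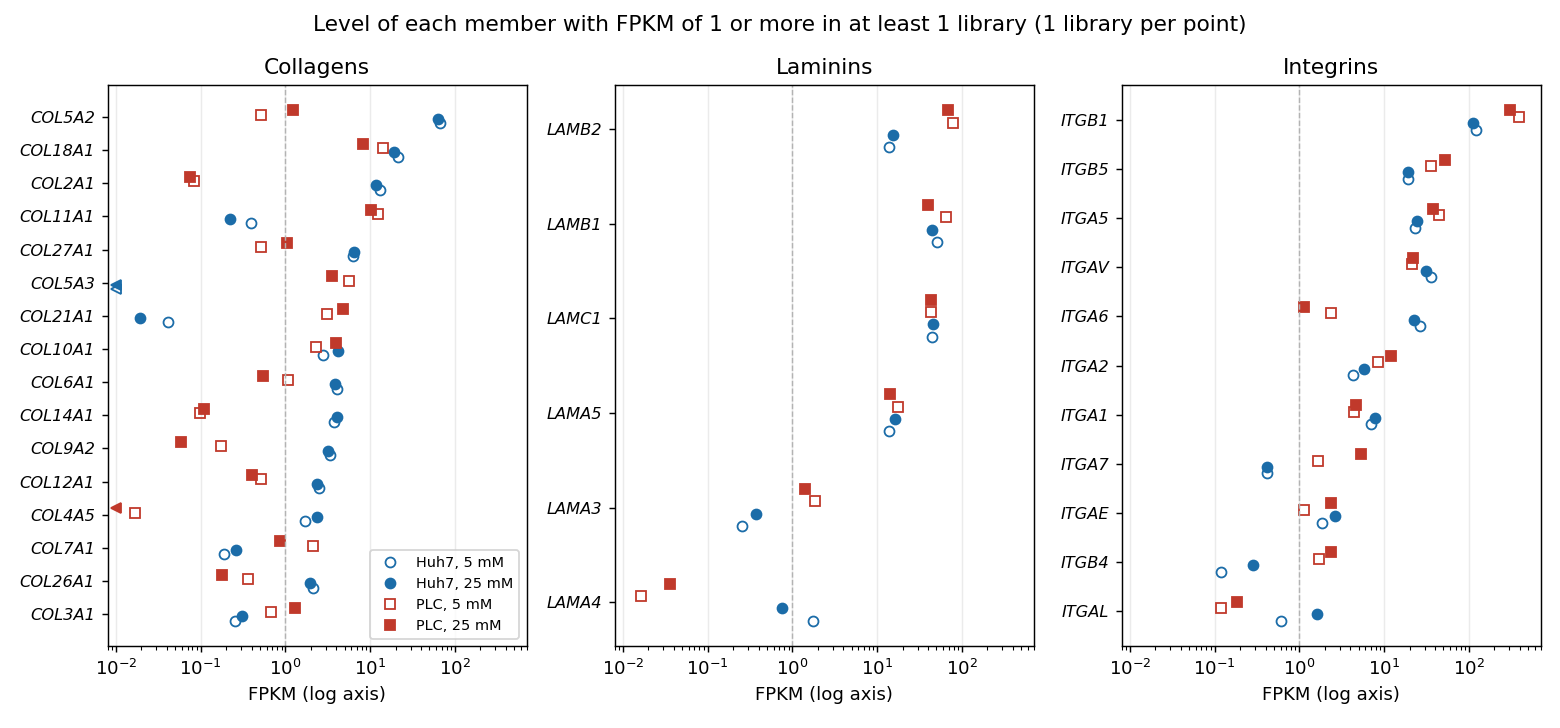
FPKM (x axis, log scale) of the 33 members that reached 1 in at least 1 library, with 1 point for each library: open symbols are 5 mM, filled symbols 25 mM, blue circles Huh7 and red squares PLC cells. Triangles at the left edge mark values under 0.01 and the dashed line marks an FPKM of 1. For COL5A2 the points sit at 66.0, 63.5, 0.519 and 1.23, while the 4 points of LAMC1 lie between 42.9 and 45.1.

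**Figure D2:**
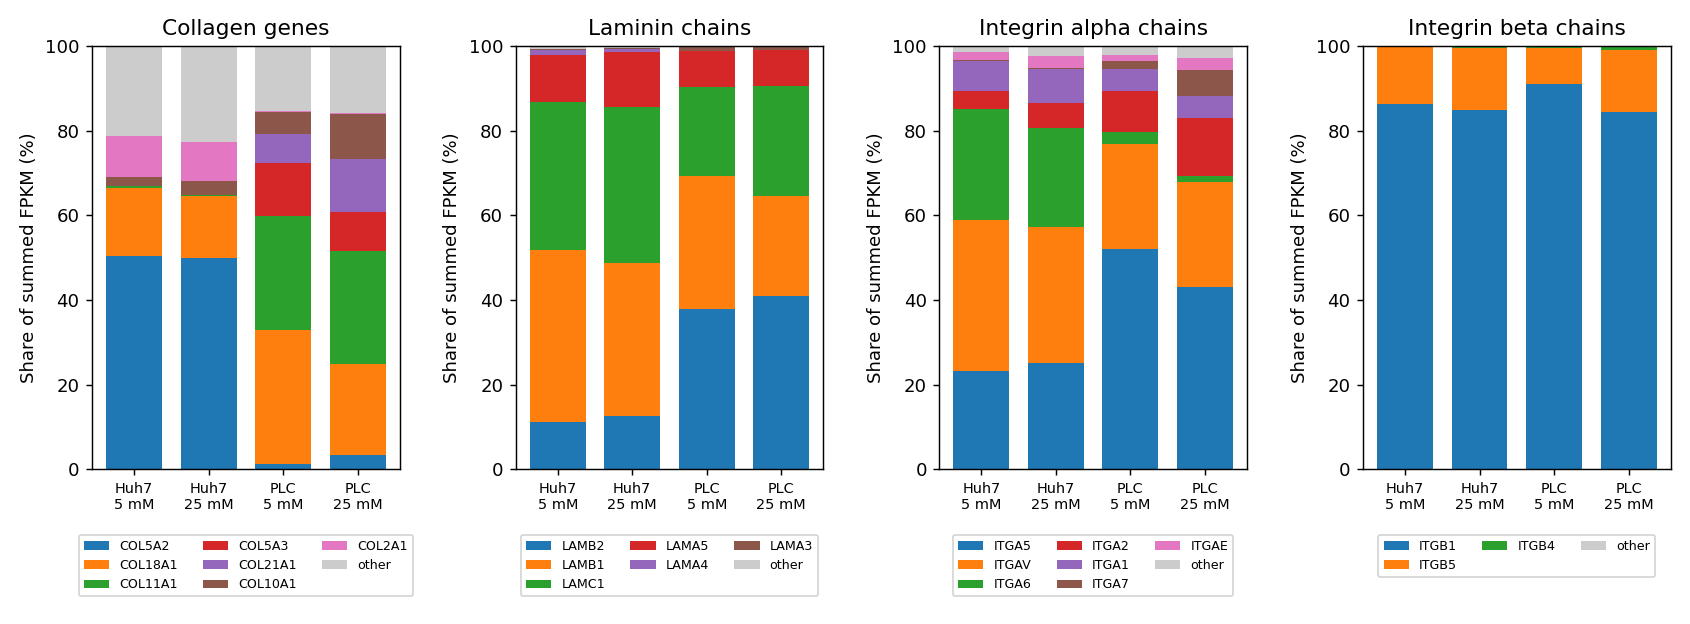
Share of the summed FPKM (y axis, %) taken by the leading collagen genes, laminin chains, integrin alpha chains and integrin beta chains in each library, with all other genes of the class in grey. COL5A2 holds 50.3%, 49.8%, 1.15% and 3.23% of the collagen sum, and ITGB1 holds 84.5% to 91.0% of the beta chain sum in all 4 libraries.

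The 2 lines differed in most of the collagens, laminins and integrins that could be tested. In the edgeR quasi-likelihood test of line, adjusted for glucose, 41 of the 55 members that passed the read filter had an adjusted p under 0.05, and 42.9% of the 23217 genes tested did. Higher in Huh7 cells were 24 members (21.8% of all genes tested) and higher in PLC cells 17 (21.1%). By family, 16 collagens were higher in Huh7 cells and 6 were lower there. The laminins divided 3 and 3 and the integrins 5 and 8. Genes read in 1 line only pass the filter through that line, so these counts describe the members that passed. With at least 10 reads required in every library, 23 of 34 members were called, 11 of them higher in Huh7 cells and 12 higher in PLC cells, and 6340 of 16164 genes. The 2 libraries of a line differ in glucose and the fit has 1 residual degree of freedom, so the p-values rest on a spread borrowed across genes.

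Among the 11 fibrillar collagens, 5 were called higher in Huh7 cells and 3 in PLC cells. COL5A2 encodes the alpha 2 chain of type V collagen, which sits inside fibrils and limits their width (chr2:189031898-189225312). Its FPKM was 66.0, 63.5, 0.519 and 1.23. Both Huh7 libraries were far above both PLC libraries, with a log2 difference of 6.33 (SE 0.331, adjusted p = 1.12e-08, edgeR quasi-likelihood test). COL2A1, the chain of the main cartilage collagen, followed the same order with an FPKM of 12.9, 11.7, 0.0843 and 0.0748 (log2 difference 7.24, SE 0.347, adjusted p = 5.68e-09, edgeR). COL27A1, a fibrillar chain first known from cartilage, had an FPKM of 6.33, 6.44, 0.516 and 1.05 (log2 difference 3.11, SE 0.293, adjusted p = 2.17e-06, edgeR).

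In PLC cells COL11A1 and COL5A3 led the fibrillar class instead. COL11A1 encodes the chain of type XI collagen that seeds thin fibrils (chr1:102876467-103108872), and its FPKM was 0.396, 0.219, 12.3 and 10.1 (log2 difference -5.24, SE 0.298, adjusted p = 2.31e-08, edgeR). COL5A3, another chain of type V collagen (chr19:9959561-10010504), had 0, 0, 1166 and 384 reads. Set against a floor of 3 reads in a Huh7 library, its level was at least 274-fold higher in PLC cells at 5 mM and at least 240-fold higher at 25 mM. The exact 95% limits of Huh7 over PLC, which also count the error of the PLC reads, reached 0.00449 and 0.00515. COL3A1, the chain of type III collagen, which forms thin fibrils in soft tissues, had an FPKM of 0.256, 0.305, 0.67 and 1.30 and was higher in PLC cells (log2 difference -1.75, SE 0.404, adjusted p = 0.00341, edgeR).

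The chains of the most common fibril, type I collagen, were nearly absent. COL1A1 had 20, 12, 3 and 0 reads and COL1A2 had 63, 126, 0 and 0. Against the same floor of 3 reads, the Huh7 level of COL1A2 was at least 29.75-fold higher at 5 mM and at least 22.4-fold higher at 25 mM. The exact 95% limits of these ratios, which also count the error of the Huh7 reads, began at 23.5 and 18.0. COL5A1, the type V chain that most type V trimers contain, had 0, 0, 2 and 0 reads, so each line carried a type V partner chain with almost no reads of COL5A1.

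Basement membrane collagen was low in both lines, apart from 1 chain in Huh7 cells. COL4A1 and COL4A2, which form the common type IV network, had 0 to 6 reads in every library. COL4A5, the alpha 5 chain (chrX:108439838-108697545), had 433, 845, 6 and 0 reads and an FPKM of 1.71, 2.37, 0.0167 and 0 (log2 difference 7.48, SE 0.594, adjusted p = 4.47e-07, edgeR). Its partner COL4A6, whose start lies 341 bases away on the other strand in the table's annotation, had only 2, 45, 13 and 1 reads. COL4A3 and COL4A4, another head-to-head pair, stayed between 15 and 133 reads, and 838 exonic bases of COL4A3 are also exon of MFF-DT on the opposite strand.

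The collagens that coat or link fibrils also differed by line. COL14A1, COL9A2 and COL12A1 are FACIT collagens, which lie on the surface of fibrils. In Huh7 cells the FPKM was 3.77 and 4.02 for COL14A1, 3.34 and 3.18 for COL9A2, and 2.46 and 2.38 for COL12A1. In both PLC libraries each of the 3 was at or under 0.519, and all 3 were called higher in Huh7 cells. COL21A1, another FACIT collagen, had the opposite pattern, with an FPKM of 0.0406, 0.0192, 3.09 and 4.75 (log2 difference -7.06, SE 0.483, adjusted p = 1.13e-07, edgeR). COL6A1 of the beaded filaments had an FPKM of 4.09, 3.88, 1.07 and 0.540, while its partner chains COL6A2 and COL6A3 had at most 24 and 18 reads in any library.

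COL7A1 builds the anchoring fibrils under epithelia, and its FPKM of 0.190, 0.264, 2.14 and 0.855 was higher in PLC cells (log2 difference -2.58, SE 0.446, adjusted p = 0.000433, edgeR). COL26A1 had an FPKM of 2.10, 1.93, 0.362 and 0.181 and was higher in Huh7 cells (log2 difference 2.89, SE 0.461, adjusted p = 0.00023, edgeR). The lines were closer for COL18A1, the source of endostatin, at 21.4, 19.0, 14.3 and 8.21 (log2 difference 0.89, SE 0.238, adjusted p = 0.00857, edgeR), although 1563 of its 8464 exonic bases are also exon of SLC19A1 on the opposite strand. COL10A1, a network collagen of growth-plate cartilage, had 2.77, 4.17, 2.30 and 3.97 with no line call (adjusted p = 0.696, edgeR).

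**Figure D3:**
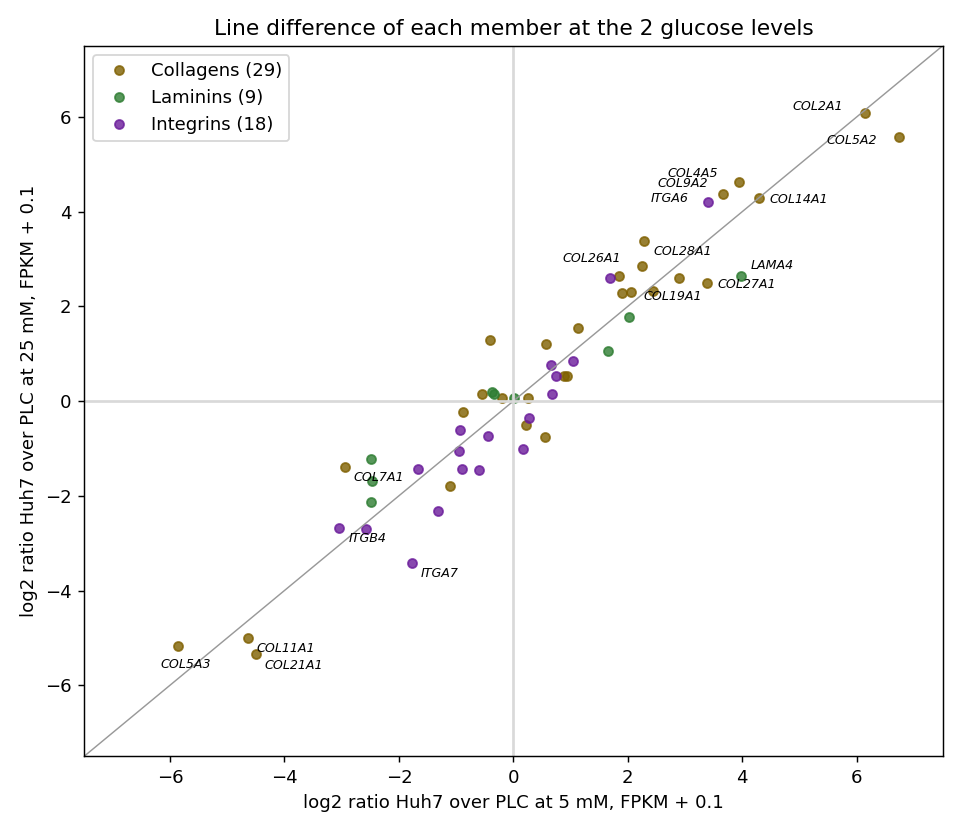
log2 ratio of FPKM, Huh7 over PLC cells with 0.1 added, at 5 mM (x axis) and at 25 mM (y axis) for the 56 members with at least 20 reads in a library, coloured by family. The grey diagonal marks equal ratios. Points at the upper right, such as COL5A2 and COL2A1, are higher in Huh7 cells at both glucose levels, and those at the lower left, such as COL5A3 and COL11A1, are higher in PLC cells at both.

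Among the abundant laminin chains LAMB2 differed between the lines, while LAMC1, LAMA5 and LAMB1 had no line call. LAMC1, the gamma 1 chain found in most laminins (chr1:183023420-183145592), had an FPKM of 43.9, 45.1, 43.5 and 42.9. The 4 values lie within a narrow range, and the log2 difference between lines was 0.04 (SE 0.196, adjusted p = 0.902, edgeR). LAMC3 had at most 13 reads. LAMA5, the alpha chain of laminin-511 and laminin-521, had an FPKM of 13.8, 16.0, 17.8 and 14.1 with overlapping values (adjusted p = 0.756, edgeR).

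LAMB1, the beta 1 chain, had an FPKM of 51.2, 43.9, 64.9 and 39.4, and the lines overlapped (adjusted p = 0.745, edgeR). LAMB2, the beta 2 chain (chr3:49121114-49133118), had 13.9, 15.5, 78.4 and 67.9, with both PLC libraries above both Huh7 libraries (log2 difference -2.32, SE 0.218, adjusted p = 2.12e-06, edgeR). The FPKM of LAMB1 was thus 3.69 and 2.84 times that of LAMB2 in Huh7 cells and 0.827 and 0.580 times in PLC cells.

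The minor alpha chains went opposite ways. LAMA4, the alpha chain of laminins around vessels and muscle, had an FPKM of 1.74, 0.752, 0.0165 and 0.0364 (log2 difference 5.61, SE 0.551, adjusted p = 3.15e-06, edgeR). LAMA3, the alpha chain of the epithelial laminin-332, had 0.252, 0.369, 1.86 and 1.41 (log2 difference -2.40, SE 0.348, adjusted p = 0.000103, edgeR). LAMB3, the beta chain of the same laminin, had 0, 0, 65 and 10 reads.

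Among integrins, 4 of the 6 beta chains tested were higher in PLC cells, and the laminin receptor chain ITGA6 was higher in Huh7 cells. ITGB1, the beta chain shared by the largest group of matrix receptors (chr10:32900318-33005792), was the highest member in every library, with an FPKM of 121.8, 112.4, 385.7 and 302.2 (log2 difference -1.55, SE 0.182, adjusted p = 1.63e-05, edgeR). The 12 alpha chains that pair with it did not sum higher in PLC cells, so ITGB1 was 1.25, 1.20, 4.59 and 3.58 times their summed FPKM. ITGB5, which pairs with the alpha V chain alone, had 19.1, 19.3, 35.9 and 52.4 (log2 difference -1.18, SE 0.217, adjusted p = 0.000703, edgeR). ITGB4, the hemidesmosome chain that pairs with alpha 6, had 0.118, 0.285, 1.70 and 2.37 (log2 difference -3.40, SE 0.397, adjusted p = 1.54e-05, edgeR).

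ITGA6, the laminin receptor chain that pairs with beta 1 or beta 4 (chr2:172427354-172506459), had an FPKM of 26.2, 22.8, 2.38 and 1.14. Both Huh7 libraries were above both PLC libraries (log2 difference 3.87, SE 0.290, adjusted p = 2.62e-07, edgeR). Another laminin-binding chain, ITGA7 (chr12:55684568-55716043), best known from muscle, had an FPKM of 0.411, 0.417, 1.65 and 5.39 and was higher in PLC cells (log2 difference -2.88, SE 0.414, adjusted p = 9.83e-05, edgeR). The FPKM of ITGA6 over that of ITGA7 was 63.9, 54.8, 1.44 and 0.212, so ITGA7 was the higher of the 2 only in PLC cells at 25 mM.

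The fibronectin receptor chain ITGA5 had an FPKM of 23.2, 24.6, 44.5 and 37.6 and was higher in PLC cells (log2 difference -0.78, SE 0.211, adjusted p = 0.00888, edgeR). ITGAV, the alpha V chain that binds RGD proteins, was higher in Huh7 cells at 35.7, 31.4, 21.2 and 21.7 (log2 difference 0.64, SE 0.205, adjusted p = 0.0222, edgeR). Of the collagen receptors, ITGA1 was higher in Huh7 cells (6.95, 7.88, 4.37 and 4.61, adjusted p = 0.0176, edgeR) and ITGA2 in PLC cells (4.32, 5.72, 8.40 and 12.03, adjusted p = 0.00315, edgeR). ITGA1 shares 499 exonic bases with PELO on the same strand, out of 18545.

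Integrin chains known from leukocytes were read at low levels. ITGAL, the alpha chain of LFA-1, had 83, 312, 23 and 19 reads, an FPKM of 0.606, 1.62, 0.119 and 0.185, and was higher in Huh7 cells (log2 difference 2.73, SE 0.442, adjusted p = 0.000254, edgeR). Its only beta partner ITGB2 had 0, 7, 0 and 6 reads, and the leukocyte marker PTPRC had at most 5. Summed FPKM of the 5 leukocyte markers was 37.4, 39.9, 4.24 and 13.9, nearly all from LYZ and CD14, and its part was not tested. The 7 alpha chains classed as leukocyte or alpha 4 and alpha 9 chains include 4 with under 20 reads in every library. ITGA9 of this class, which is not a leukocyte chain by its class name alone, had 28, 45, 63 and 49 reads. ITGAE, which pairs with beta 7 to bind E-cadherin, had an FPKM of 1.85, 2.67, 1.13 and 2.39 with no line call (adjusted p = 0.285, edgeR), and ITGB7 had 6, 5, 41 and 42 reads. ITGAE shares 427 exonic bases with HASPIN, and ITGB7 shares 1881 of its 4451 with ZNF740, each on the opposite strand.

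Within each line, high and low glucose were compared by the FPKM ratio of 25 mM over 5 mM with 0.1 added to both. The study's limits of 1.5 and 0.67 were applied to members whose higher library held 20 reads or more. With 1 library per condition these ratios have no replicate check and no p-value. Intervals in brackets are exact 95% Clopper-Pearson intervals of the ratio with nothing added, and cover counting error only. The members are long genes, with a median of 7683.5 exonic bases against 1141 over all genes of the table, so the share past the limits is also given for genes of at least 6000 bases.

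In Huh7 cells most members hardly differed between the glucose levels. Of 47 members, 4 were over 1.5 (8.51%, beside 10.9% of the 19405 genes counted) and 2 were under 0.67 (4.26%, beside 8.2%). Of the 42 members of at least 6000 bases, 4 (9.52%) and 2 (4.76%) were past the limits, beside 4.02% and 4.64% of such genes. The share over 1.5 was thus below that of all genes but above that of long genes, and rests on 4 members. The median ratio was 1.01 for the members and 1.04 for all genes.

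The members over 1.5 in Huh7 cells were all low in reads. ITGAL, described above, had a ratio of 2.43 (2.09 to 3.44) from 83 to 312 reads. COL28A1 had a ratio of 1.95 (1.62 to 2.93) from 62 to 189 reads, and ITGB4 1.77 (1.39 to 4.44) from 17 to 58. COL4A6 went from 2 to 45 reads, a ratio of 2.37 with 0.1 added and 16.0 without (4.18 to 136). LAMA4 was the larger of the 2 decreases at 0.462 (0.369 to 0.502), from 447 to 271 reads in a library with more reads in all. The other was COL11A1, at 0.644 (0.388 to 0.786) and 77 and 60 reads.

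The abundant Huh7 chains stayed within the limits. COL5A2 had a ratio of 0.963, COL2A1 0.908, LAMB1 0.858, LAMC1 1.03, ITGB1 0.923, ITGA6 0.871 and ITGAV 0.880. Nearest to the upper limit from below was COL10A1 at 1.49 (1.28 to 1.77), and with nothing added it was just over the limit at 1.51.

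In PLC cells more members were past the limits. Of 44 members, 11 were over 1.5 (19.8% of the 18744 genes counted) and 10 were under 0.67 (15.1%). Among members of at least 6000 bases these were 8 and 5 of 35, beside 14.4% and 11.6% of such genes. The families divided unevenly, though the collagen division depended on gene length. Collagens had 6 over and 7 under of 21 with a median ratio of 0.827, laminins 0 over and 2 under of 6 with a median of 0.780, and integrins 5 over and 1 under of 17 with a median of 1.33, while the median of all genes was 1.04. Among members of at least 6000 bases, collagens had 5 over and 3 under of 15. Laminins of that length had 0 over and 1 under of 5, and integrins 3 over and 1 under of 15. Of the 5 integrins of any length over 1.5, ITGA10, ITGA2B and ITGB7 had few reads, and the others were ITGA7 and ITGAE. The abundant ITGB1, ITGB5, ITGA5 and ITGAV stayed within the limits at 0.783, 1.46, 0.846 and 1.02. Between the same libraries 4 of 10 hepatocyte markers were over 1.5 and 0 under 0.67 (AFP at 3.30, APOA1 at 3.46, SERPINA1 at 2.34 and FGB at 1.97), and the summed FPKM of the 11 on the list was 1142 at 5 mM and 2050 at 25 mM. Their part in these differences was not tested.

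Of the members over 1.5 in PLC cells, ITGA7 had a ratio of 3.14 (2.85 to 3.77), from an FPKM of 1.65 to 5.39 and from 318 to 552 reads. It pairs with beta 1, whose own ratio was 0.783 (0.773 to 0.794). ITGAE had 2.03 (1.77 to 2.55), and the HASPIN gene with which it shares exonic bases had 2.41. The type V and III genes COL5A2 and COL3A1 lie tail to tail on chromosome 2 with 19151 bases between them, and had ratios of 2.14 (1.84 to 3.05) and 1.82 (1.52 to 2.48). COL27A1 had 1.87 (1.69 to 2.46), COL10A1 1.69 (1.44 to 2.06) and COL21A1 1.52 (1.37 to 1.73).

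The remaining 4 over the limit had few reads. They were COL24A1 (17 and 48 reads), ITGA10 (3 and 20), ITGA2B (9 and 22) and ITGB7 (41 and 42). With nothing added their ratios were 5.33, 12.6, 4.61 and 1.93, the first 3 above the 3.27 of ITGA7. ITGA10 was the member just inside the limit of 20 reads, and COL6A3, with 18 and 2 reads, was just outside it.

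The decreases in PLC cells included the abundant laminin chain LAMB1, while LAMB2 and LAMC1, also abundant, stayed within the limits at 0.865 and 0.986. LAMB1 went from 15856 to 5098 reads and from an FPKM of 64.9 to 39.4, a ratio of 0.607 (0.588 to 0.626). On the opposite strand it shares 221 exonic bases with AC005046.1 (0.653 in PLC cells) and 70 with DLD (0.836). COL18A1 had a ratio of 0.576 (0.536 to 0.613), while SLC19A1, with which it shares exonic bases, had 1.49. COL7A1 had 0.427 (0.334 to 0.478). ITGA6 had 0.501 (0.391 to 0.587), from 483 to 123 reads. Of the other laminin-binding chains, ITGA7 was over 1.5 and ITGA3 had 0.873 (0.693 to 1.06).

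COL5A3, the chain read only in PLC cells, had a ratio of 0.628 (0.552 to 0.698), and LAMB3 0.417 (0.133 to 0.568). COL6A1 and COL6A2, neighbours on the same strand of chromosome 21, had 0.547 (0.356 to 0.702) and 0.590 (0.0793 to 0.915). The intervals of COL9A2 (0.0859 to 1.01) and COL26A1 (0.211 to 1.06) contain 1, so their ratios of 0.584 and 0.608 could not be told from counting error. LAMC1 again was close to equal, at 0.986 (0.955 to 1.02).

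**Figure D4:**
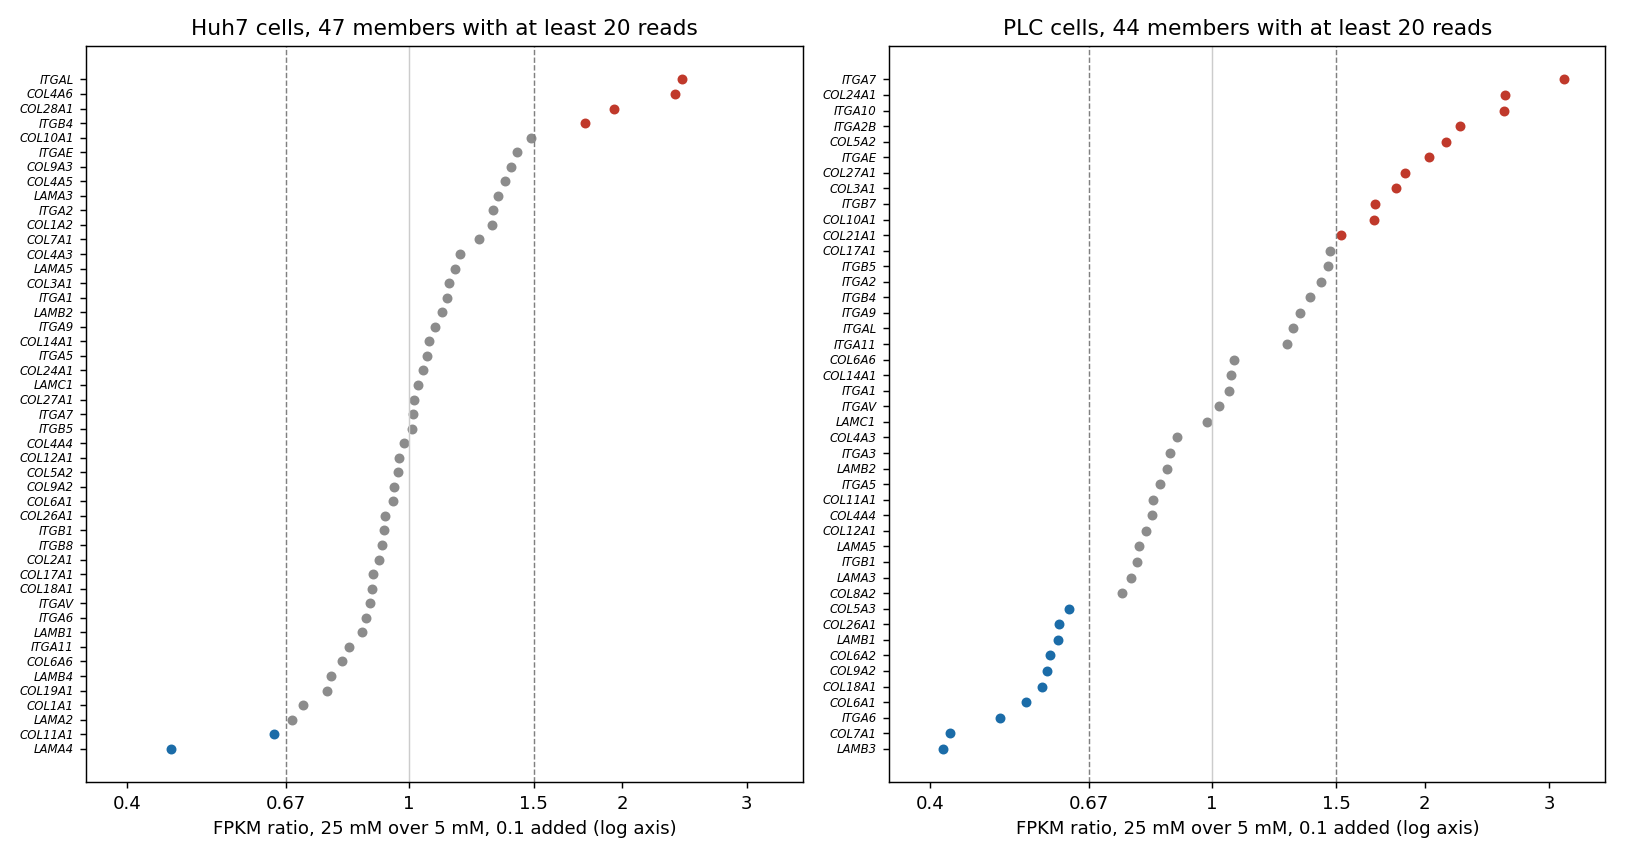
FPKM ratio of 25 mM over 5 mM with 0.1 added (x axis, log scale) for each member with at least 20 reads, 47 in Huh7 cells on the left and 44 in PLC cells on the right, ordered by ratio. Dashed lines mark 0.67 and 1.5, red points are over 1.5 and blue points under 0.67. In Huh7 cells 6 members are coloured and in PLC cells 21, and no gene is coloured in both panels.

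With 0.1 added, no member was past the limits in both lines. Of the 35 members with at least 20 reads in both lines, 0 were past them in the same direction (5.97% of the 16081 such genes) and 0 in opposite directions (1.8%). This depends on the 0.1. With nothing added COL10A1 had ratios of 1.51 (Huh7) and 1.72 (PLC), over 1.5 in both lines. ITGAL was over 1.5 in both as well, at 2.67 and 1.56, but had only 23 and 19 reads in PLC cells. In the edgeR test of a glucose change shared by the lines, 0 of 55 members had an adjusted p under 0.05 (0.379% of the 23217 genes tested), 7 had an unadjusted p under 0.05 (8.51% of all genes tested) and the lowest adjusted p was 0.438. DESeq2 called 0 of the 34 members to which it gave an adjusted p. Of the 77 members with an unadjusted DESeq2 p, 2 were under 0.05 (2.89% of all genes). The 7 were 4 that were lower at 25 mM (LAMB1, ITGA6, COL18A1 and COL11A1) and 3 that were higher (ITGAL, ITGAE and ITGA7). For LAMB1 the log2 difference, 25 mM minus 5 mM, was -0.55 and for ITGA6 -0.68 (adjusted p = 0.454, edgeR). Opposite changes in the lines cancel in this test.

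Genes that fold, cross-link, bind or anchor these chains were read from 4 lists, of 29 collagen-processing genes, 15 basement membrane partners, 20 integrin adaptors and 12 other matrix receptors. In this order 26, 13, 20 and 9 of them were tested with edgeR. For a shared glucose change 0 were called, and 2, 3, 3 and 0 had an unadjusted p under 0.05 (8.51% of all genes tested). Of the genes tested, 7, 7, 5 and 5 were called higher in Huh7 cells (21.8% of all genes) and 9, 3, 4 and 1 higher in PLC cells (21.1%). In Huh7 cells the median ratios of the lists were 1.05, 0.991, 0.998 and 0.973 and in PLC cells 1.11, 0.935, 0.971 and 0.990, beside 1.04 for all genes in both lines. The 1 gene past the limits in both lines in the same direction was NTN4, a netrin that binds laminin and disrupts its network. It had 24, 16, 1616 and 358 reads and ratios of 0.621 (Huh7) and 0.423 (PLC), with an adjusted p of 0.13 in the edgeR test of a shared change. With each read counted as 0.5, its Huh7 interval (0.168 to 1.26) contains 1.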

How the data were processed

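The deposited table holds raw counts, the whole number of reads the authors assigned to each gene, with no normalization and with gene coordinates and lengths in the same table. rRNA had been removed and directional libraries built. The submitters' processing notes name HISAT2, featureCounts and hg38 without versions, and the annotation release and the strand setting of counting are not given in the sources used here. Of 59657 lines 59652 were used, and the other 5 are a broken entry. FPKM was computed from the counts, the table's gene lengths and the library totals.

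Lines were compared, and a shared glucose change tested, with edgeR 4.0.16 (glmQLFit, TMM, filterByExpr, an additive model of line and glucose over 4 libraries, Benjamini-Hochberg over all genes). DESeq2 1.42.0, other scalings, filters, pseudocounts and limits were alternatives. Ratios within a line added 0.1 to both FPKM values. Scripts were tested on simulated data. Members named with values in all libraries are those with an FPKM of at least 1 in at least 1 library, past the ratio in both lines, or called for the shared change. Other members named were singled out after their values were seen. Related genes were named where past the ratio in both lines. The remaining members are given by counts and ranges, and 1 result was left out and is not reported here. The members, lists and tests were chosen with earlier results of these data known.

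A floor of 3 reads equals 0.140, 0.0997, 0.0991 and 0.187 CPM in the 4 libraries. Even counts made up 60.3% to 61.9% of the genes with 1 to 20 reads (2612 genes with 2 reads and 1295 with 1 in Huh7 cells at 5 mM), so reads may not be independent and intervals and floors cover counting error only. Of the members, 14 share at least 50 exonic bases with another gene that had 20 reads or more.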

Additional observations from a re-analysis of the deposited data

Results flagged for a closer look

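In 5 of the 35 members with at least 20 reads in both lines (14.3%), the ratio of 25 mM over 5 mM lay on opposite sides of 1 in the 2 lines, with each counting interval clear of 1. The same held for 11.7% of the 16081 genes with that many reads. The difference from line to line was not tested, since each ratio rests on 1 library per condition. For COL5A2 it was 0.963 (Huh7) and 2.14 (PLC, where its level was low). LAMA5, the main laminin alpha chain, had 1.16 (Huh7) and 0.790 (PLC). It shares 244 of its 14291 exonic bases with ADRM1 on the opposite strand, which had 1.19 (Huh7) and 0.836 (PLC). In the same order LAMA3 had 1.33 and 0.770, LAMB2 1.11 and 0.865, and ITGA5 1.06 and 0.846. All except COL5A2 were higher at 25 mM in Huh7 cells and lower in PLC cells. With reads halved, as if each pair had been counted as 2 reads, 4 of the 5 remained (not LAMA3), and with TMM scaling 4 remained (not ITGA5).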

How the results depend on the processing

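The count of members that differed between the lines was 41, and lay between 37 and 42 under the other scalings, no filter, DESeq2, line alone, and a comparison within 5 mM or within 25 mM. It was 23 when at least 10 reads were required in every library, where only 34 members could be tested. Over all genes that requirement moved the line calls from 9969 to 6340. COL2A1, COL5A3, COL4A5, COL9A2, COL21A1, COL26A1 and LAMA4 could not be tested with it. Where a member named for the line comparison could be tested, 1 call was lost, COL18A1 with line alone (log2 difference 0.82), and none changed direction. The 6 members past the limits in Huh7 cells became 2 with 1 in place of 0.1 added, 3 with at least 100 reads, 3 with an FPKM over 0.5 and 3 with limits of 2 and 0.5, and rose to 9 with nothing added and 7 with no filter. The 21 in PLC cells became 7 with 1 added, 13 with at least 100 reads and 8 with limits of 2 and 0.5. They were 24 with nothing added and 24 with no filter, and 20 with TMM, which shifts PLC ratios by -0.12 on the log2 scale and takes COL21A1 to 1.40. With intervals clear of 1 they were 19, and 18 with reads halved, an alternative chosen after seeing the data. Under single alternatives the named ratios stayed past the limit in 51 cases and lost it in 7 in Huh7 cells, and in 175 and 34 in PLC cells. The members called for a shared glucose change were 0 under all 6 alternatives, with a lowest adjusted p between 0.307 and 1. Over all genes the count was 88, and 19 with library totals, 526 with no filter, 27 with 10 reads in every library, 197 with DESeq2 and 0 with glucose alone. With CPM in place of FPKM 53 members reached 1, against 33. With TMM, also added later, 2 related genes and not 1 were past the limits in both lines, the second being THBS1. The cause was not tested. No paired analysis was possible because the labels carry no replicate numbers, apart from the fit of line and glucose itself, which sets high against low glucose within each line. With 1 library per line and glucose level no replicate could be left out.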

Other observations

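The lines also differed in genes that modify or accompany the matrix, and the genes named here were chosen after their values were seen. PLOD2, a lysyl hydroxylase that prepares collagen for cross-linking, had 3399, 6853, 6 and 6 reads in the 4 libraries, in the order used above. FN1, which encodes fibronectin, had an FPKM of 315.8, 312.8, 21.8 and 22.5. Its receptor chain ITGA5 was higher in PLC cells, while ITGAV, which binds RGD proteins, was higher in Huh7 cells. NID1, which ties laminin to type IV collagen, had 18477, 22732, 2028 and 1278 reads. NPNT, a ligand of the integrin with alpha 8 and beta 1 chains, had an FPKM of 1.31, 0.908, 37.5 and 45.4, and ITGA8 had 0 reads in every library.

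HSPG2, which encodes the basement membrane proteoglycan perlecan, had 10691, 11991, 5468 and 863 reads and a ratio of 25 mM over 5 mM of 0.798 (Huh7) and 0.305 (PLC; adjusted p = 0.159 for a shared change, edgeR). ITGB1-DT, a transcript that starts next to ITGB1 on the opposite strand and shares 401 exonic bases with it, had 11, 17, 696 and 138 reads, higher in the PLC libraries as ITGB1 was.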
